A study of Mus musculus with 2 samples.

Results

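The genes described here are the mouse genes with a symbol made of Gpr and a number, with Gpr17 left out. The rule found 73 such genes among 55536 annotated genes, and 71 of them are protein-coding. They were measured by total RNA sequencing of the hippocampus (the label reads layer of hippocampus). The mice were 25 days old, male, and of the hybrid strain B6CASTF1/J. There was 1 group with 2 biological replicates, with 300 ng of starting RNA and added ERCC spike-ins (synthetic reference RNAs) in each library. No condition was compared, so the data give levels and the distance between replicates, with no p-value. The replicates carry separate tissue identifiers but the same donor identifier, so it is unclear whether separate animals were used, and their spread may be technical. Depth on annotated genes was 30635891 expected counts for replicate 1 and 35713471 for replicate 2.

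G protein-coupled receptors cross the membrane with a bundle of helices, and on binding a ligand they switch G proteins that raise or lower second messengers such as cyclic AMP and calcium. A Gpr number was given to genes that looked like such receptors before any ligand was known, and those still without an accepted ligand are called orphan receptors. Many are brain genes, and several signal without any added ligand. The shared name does not make the set uniform. Of the 73 genes, 25 were listed here for a reported ligand that is a proton, a peptide or protein, a lipid, or a metabolite or ion. The list is not complete. A further 8 (Gpr89, Gpr107, Gpr108, Gpr137, Gpr137b, Gpr137c, Gpr155 and Gpr180) belong to other membrane protein families, several of them of the Golgi or lysosome. Gpr31a and Gpr141b have no coding transcript in the annotation, where they are typed as a processed pseudogene and a lincRNA. The label of orphan receptor therefore holds for part of the set, and the genes are called Gpr genes below.

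Promoter windows of RefSeq (build GRCm38.p6, the mm10 assembly of the tables, 250 bases before to 50 after a start site) could be matched to 52 of the 73 genes by symbol. The windows shown are those of the 3 highest and the 2 lowest protein-coding genes among those with 1 window, because the genes present and absent in this tissue differed in their CpG content (values are given further on). They read 5′ to 3′ along the gene, and capitals mark the CpG dinucleotides. Those of Gpr158 (chr2:21367317-21367616, plus strand), Gpr22 (chr12:31713834-31714133, minus strand) and Gpr155 (chr2:73386431-73386730, minus strand) belong to genes at 25.4 to 33.6 TPM. Those of Gpr141 (chr13:19824208-19824507, minus strand) and Gpr174 (chrX:107284096-107284395, plus strand) belong to genes with 0 counts in both libraries. Gpr31b, also with 1 window and 0 counts, is not shown.
Gpr158: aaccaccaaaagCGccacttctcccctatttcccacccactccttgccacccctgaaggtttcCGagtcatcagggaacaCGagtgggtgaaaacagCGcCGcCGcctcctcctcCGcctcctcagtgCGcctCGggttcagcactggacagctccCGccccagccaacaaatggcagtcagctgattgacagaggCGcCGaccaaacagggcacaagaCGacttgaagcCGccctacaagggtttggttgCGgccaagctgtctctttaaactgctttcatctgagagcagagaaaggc
Gpr22: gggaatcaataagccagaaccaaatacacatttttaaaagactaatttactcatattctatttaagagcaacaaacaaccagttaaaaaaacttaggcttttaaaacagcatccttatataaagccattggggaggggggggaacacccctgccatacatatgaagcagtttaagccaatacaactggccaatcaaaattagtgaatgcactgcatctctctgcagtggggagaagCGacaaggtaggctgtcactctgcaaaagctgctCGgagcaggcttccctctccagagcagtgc
Gpr155: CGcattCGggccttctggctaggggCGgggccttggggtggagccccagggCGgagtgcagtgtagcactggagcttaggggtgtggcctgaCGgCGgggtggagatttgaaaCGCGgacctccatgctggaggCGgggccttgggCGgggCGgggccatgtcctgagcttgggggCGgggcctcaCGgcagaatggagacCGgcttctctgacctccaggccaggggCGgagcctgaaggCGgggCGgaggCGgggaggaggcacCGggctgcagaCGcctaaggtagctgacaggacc
Gpr141: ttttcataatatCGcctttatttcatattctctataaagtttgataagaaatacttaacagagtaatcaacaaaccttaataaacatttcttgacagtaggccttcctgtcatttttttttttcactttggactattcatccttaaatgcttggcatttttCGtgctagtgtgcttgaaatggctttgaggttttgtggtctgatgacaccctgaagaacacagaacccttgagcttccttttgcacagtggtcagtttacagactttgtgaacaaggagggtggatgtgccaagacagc
Gpr174: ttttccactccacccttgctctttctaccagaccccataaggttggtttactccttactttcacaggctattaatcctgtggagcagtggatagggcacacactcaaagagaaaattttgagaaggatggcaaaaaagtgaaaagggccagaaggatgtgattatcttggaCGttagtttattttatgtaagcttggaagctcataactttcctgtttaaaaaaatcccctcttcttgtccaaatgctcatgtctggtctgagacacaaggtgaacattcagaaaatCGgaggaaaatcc
The window of Gpr155 held 20 CpGs and that of Gpr158 held 15. Those of Gpr22, Gpr141 and Gpr174 held 2 each, so a present gene and the absent ones shared a low count. By the criterion given further on, only the window of Gpr158 was CpG-rich among those shown. Its observed over expected CpG was 0.609, just above the limit, and that of Gpr155 was 0.588.

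Levels are transcripts-per-million (TPM), a count divided by gene length and scaled to the library total, and so can be compared between genes. At a mean of at least 1 TPM, 38 of the 73 genes (52.1%) counted as present, beside 58.9% of protein-coding genes and 27.4% of all annotated genes. Replicate 1 alone gave 36 and replicate 2 alone 38. At 10 TPM or more stood 17 genes (23.3%, against 36.8% of protein-coding genes). The median Gpr gene was at 1.12 TPM, below the 3.42 TPM of the median protein-coding gene. On the scale of log2(TPM + 0.1) these medians were 0.29 and 1.82. All 8 genes of other membrane protein families were present, and of the other 65 genes 30 were (46.2%). The 25 genes listed for a reported ligand were mostly low, with 6 of 25 present. That list leaves out Gpr158, which responds to glycine and was present, so the share holds for the listed genes only.

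Few genes carried most of the signal. Summed over the 73 genes the level was 549 TPM in replicate 1 and 567 in replicate 2 (558 ± 13.2, SD, n = 2). Gpr162 alone made up 14.8% of this sum, the highest 3 genes 29.1% and the highest 10 genes 60.5%. The 8 genes of other membrane protein families held 26.6%. Gpr162, a receptor of the rhodopsin class with little known function, stood at 83.4 TPM in replicate 1 and 81.6 in replicate 2 (chromosome 6, 124858444 to 124863983 in mm10). It lay above every other member in both libraries. Read counts gave another order, because they grow with gene length. Gpr26, which signals without ligand, had the most expected counts (5926 and 6892) but ranked 8 by TPM, at 24.8 and 24.6 (chromosome 7, 131966460 to 131994405). Its transcript is 11571 bases long and 8.74% of it is coding.

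**Figure D1:**
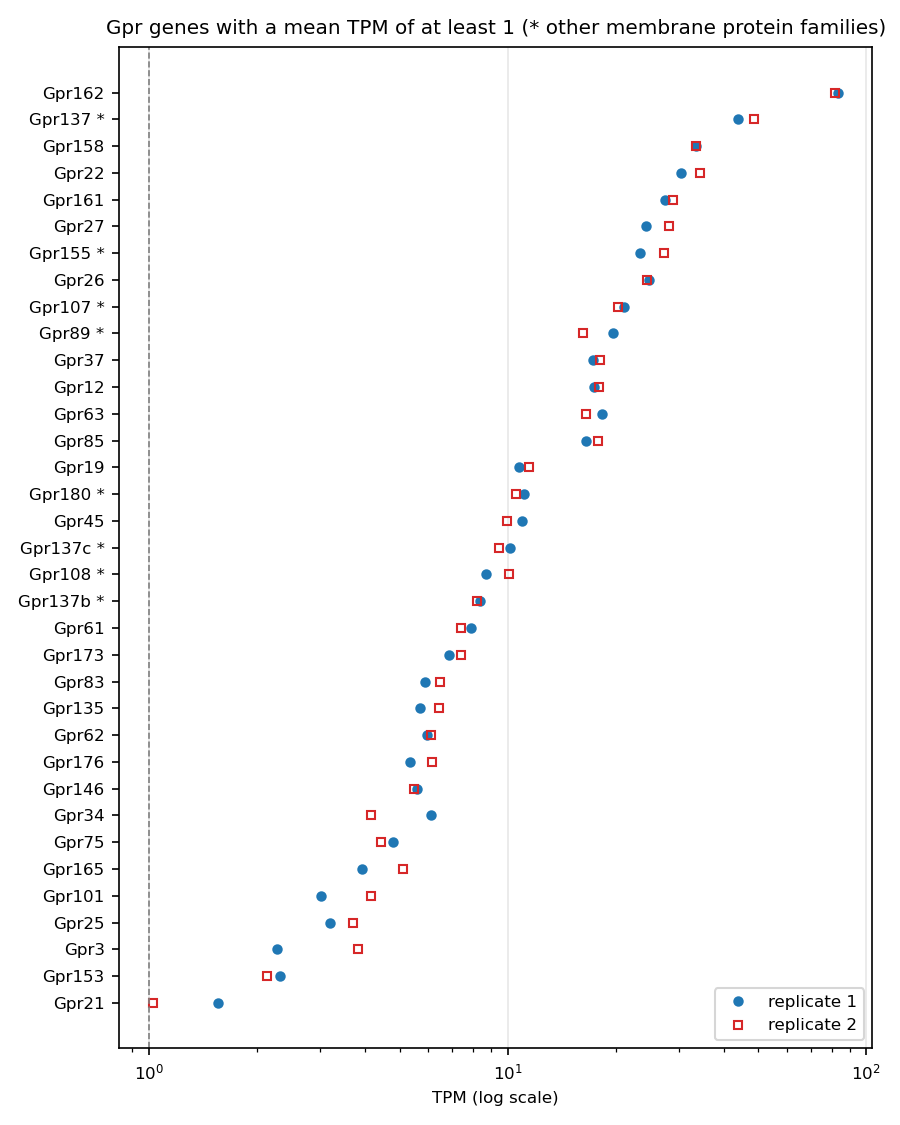
TPM on a log axis of 35 of the 38 Gpr genes with a mean of at least 1, in replicate 1 (filled circles) and replicate 2 (open squares), with the threshold as a dashed line and asterisks on genes of other membrane protein families. Gpr162 stands apart at over 80 TPM, while Gpr21 lies nearest to the threshold.

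Class C receptors are relatives of the glutamate and GABA-B receptors. Gpr158, the abundant gene of this class here, which anchors the complex of Rgs7 and Gnb5 at the membrane, binds the proteoglycan Gpc4 and responds to glycine, stood at 33.6 TPM in each replicate (chromosome 2, 21367542 to 21830547). Gpr179, its relative known from retinal bipolar cells, was at 0.07 and 0.06 TPM, from 13 and 12 counts. Their coding sequences were 55.9% identical. All 4 listed partners of Gpr158 were present. Rgs7bp, which anchors Rgs7, stood at 63.6 and 63.4 TPM, and the G protein subunit Gnb5 at 52.9 and 55.01. Rgs7, which shortens G protein signals, was at 34.2 and 34.3, close to the level of Gpr158, and Gpc4 at 23.1 and 23.4.

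Among the 3 receptors that raise cyclic AMP without an added ligand, Gpr12 led. Gpr12 stood at 17.4 TPM in replicate 1 and 18.0 in replicate 2, Gpr3 at 2.27 and 3.83, and Gpr6 at 0.68 and 0.73. Gpr12 held 82.5% ± 4.06 of their sum and Gpr6, known from striatal neurons, 3.29%. The share of Gpr3 was 11.1% in replicate 1 and 17.0% in replicate 2, so the 2 lesser genes kept their order in both libraries. The coding sequences of the 3 were 61.1 to 65.1% identical in pairs.

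The 3 SREB receptors, named for being super conserved receptors expressed in brain, were all above 5 TPM in both libraries. Gpr27 stood at 24.3 and 28.2 TPM, Gpr85 at 16.6 and 17.8, and Gpr173 at 6.85 and 7.43. Gpr27 held 51.8% ± 1.34 of the sum, Gpr85 34.0% and Gpr173 14.1%, and the order was the same in both libraries. Gpr85 and Gpr173 were the most alike pair of all families compared, with 67.0% identity of their coding sequences.

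The melatonin-receptor-like genes Gpr61, Gpr62 and Gpr135 shared their sum most evenly. Gpr61 stood at 7.93 and 7.41 TPM, Gpr62 at 5.96 and 6.12, and Gpr135 at 5.71 and 6.42. Their shares were 38.8%, 30.5% and 30.7%, and Gpr62 and Gpr135 changed places between the replicates. Gpr50, a melatonin-related receptor that binds no melatonin, was near the floor at 0.03 TPM, from 2 counts in each library.

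Of the proton-sensing receptors, which couple acid outside the cell to G proteins, 3 are described here and all were low. Gpr4, known from endothelium, was at 0.93 and 0.82 TPM, just under the threshold. Gpr65 had 2 and 1 counts, and Gpr132 had 2 counts in replicate 1 and was at 0 in replicate 2. Exons of Gpr65 share 24.7% of their bases with the antisense gene Gm47566.

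Of 8 receptors for peptides and proteins, 4 were present. Gpr37, a receptor of oligodendrocytes and neurons for which prosaposin was reported as ligand, stood at 17.3 and 18.1 TPM. Gpr83, a receptor for a peptide cut from the precursor Pcsk1n, was at 5.90 and 6.49, Gpr75, for which the chemokine Ccl5 was reported, at 4.79 and 4.45, and Gpr25, for which Cxcl17 was reported, at 3.19 and 3.72. Of the exon bases of Gpr75, 98.0% lie within the span of Asb3 on the same strand. The other 4 were below 1 TPM. Gpr182, a scavenger of chemokines, was at 0.60 and 0.53, the chemerin receptor Gpr1 at 0.16 and 0.15, and Gpr15 had 1 count in all. Gpr171, a receptor for another Pcsk1n peptide, was listed at 0. Among the genes of their reported ligands, Psap stood at 586 and 651 TPM, above Gpr37, and Pcsk1n at 164 and 188, above Gpr83. Rarres2, which encodes chemerin, was at 7.04 and 5.85. Ccl5, at 0.11 and 0.28, and Cxcl17, listed at 0, lay below Gpr75 and Gpr25. Of 6 ligand genes found, 3 reached 1 TPM.

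The 8 lipid receptors found had 1 present member. Gpr34, a lysophosphatidylserine receptor of microglia, stood at 6.11 TPM in replicate 1 and 4.17 in replicate 2. The oxysterol receptor Gpr183 was at 0.37 TPM in both libraries and Gpr84, a receptor for medium-chain fatty acids, at 0.47 and 0.18, with 39.5% of its exon bases shared with the antisense gene Gm49482. Gpr55, Gpr18 and Gpr119 had at most 4 counts in either library, and Gpr174 and Gpr31b had none. The low level of Gpr183 stood beside 2 of 3 genes of oxysterol metabolism above 1 TPM. Cyp7b1, which makes its ligand, was at 13.3 and 14.3 TPM, Hsd3b7, which removes it, at 1.92 and 2.70, and Ch25h was listed at 0 in replicate 1 and stood at 0.25 in replicate 2.

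None of the 5 receptors for metabolites and ions reached 1 TPM. Gpr139, a receptor for aromatic amino acids known from the habenula and striatum, was the highest at 0.77 and 0.99, which made it the first gene under the threshold. Gpr35 was at 0.37 and 0.24, the zinc receptor Gpr39 at 0.14 and 0.11, and Gpr143, the gene of ocular albinism, had 1 count in each library. Gpr142, the close relative of Gpr139, was listed at 0. Of the exon bases of Gpr39, 39.9% are shared with Lypd1 on the opposite strand, so its count is uncertain.

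The genes of other membrane protein families ran from 8.31 to 46.3 TPM. Gpr137, a lysosomal protein tied to growth control by mTORC1, stood at 43.8 and 48.7 TPM, second among all Gpr genes (chromosome 19, 6938057 to 6942480). Its relatives Gpr137c (10.2 and 9.47) and Gpr137b (8.40 and 8.21) were lower, so that Gpr137 held 71.9% ± 2.20 of the 3. Gpr155, a lysosomal cholesterol sensor, stood at 23.4 and 27.3. The Golgi protein Gpr107 was at 21.1 and 20.3 and its relative Gpr108 at 8.71 and 10.1. Gpr89, an anion channel of the Golgi that sets its pH, was at 19.6 and 16.2, and Gpr180 at 11.1 and 10.6. Exons of Gpr89 share 24.8% of their bases with Pdzk1 on the opposite strand.

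Receptors of the primary cilium were led by Gpr161, which holds hedgehog signalling in check, at 27.5 and 29.0 TPM (chromosome 1, 165295789 to 165326745). Gpr157, the other ciliary receptor listed, was at 0.75 and 0.54. Gpr101, a pituitary growth gene and the nearest relative of Gpr161 in the family table, stood at 3.01 and 4.15, which left 88.7% ± 1.88 of the pair to Gpr161. Their coding sequences were 52.7% identical, close to the median of 52.6% over unrelated pairs of Gpr genes.

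The remaining present genes have no accepted ligand. Gpr22, known from brain and heart, stood at 30.5 and 34.4 TPM (chromosome 12, 31706867 to 31713947). Gpr63 was at 18.3 and 16.5 and its relative Gpr45 at 10.99 and 9.95, a share of 62.4% ± 0.0403 for Gpr63. This share was 53.9% in kallisto and 56.5% by expected counts. On transcripts typed as protein-coding, Gpr63 stood at 12.3 TPM on average and Gpr45 at 2.91. Gpr19 was at 10.8 and 11.5. Gpr176, a receptor of the circadian clock in the suprachiasmatic nucleus, was at 5.33 and 6.15, and Gpr146, known for its part in liver cholesterol control, at 5.60 and 5.5. Gpr165 stood at 3.94 and 5.12. Gpr153, the relative of Gpr162, was at 2.32 and 2.13, so Gpr162 held 97.4% ± 0.115 of that pair. Gpr21, which signals without an added ligand, was close to the threshold at 1.56 and 1.03.

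**Figure D2:**
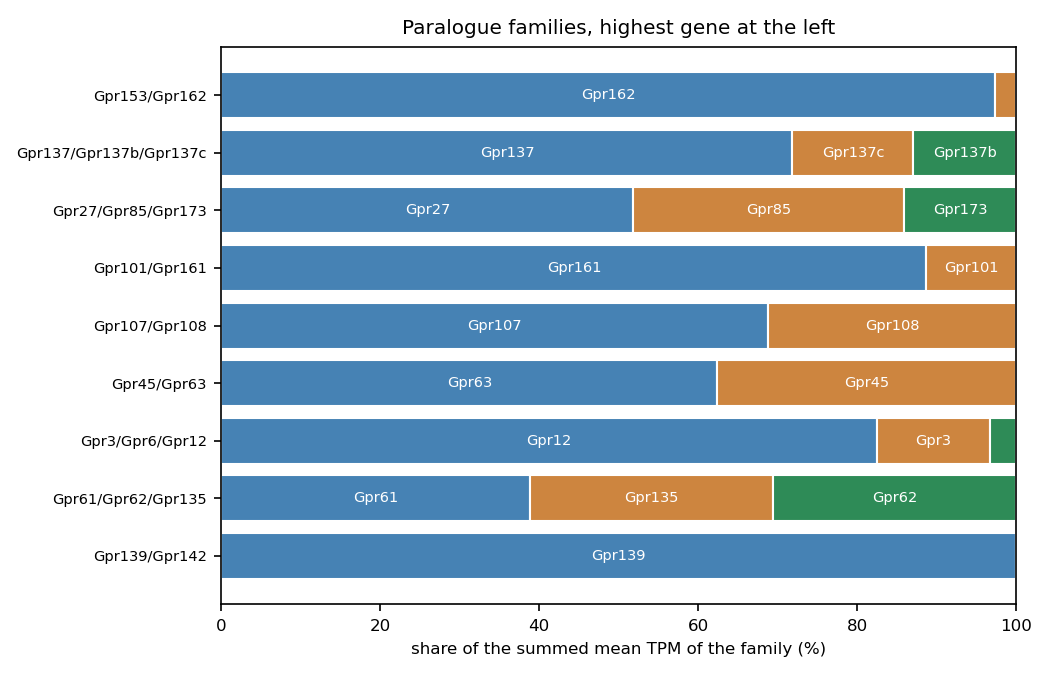
Share of each gene in the summed mean TPM of its family of related Gpr genes, for 9 families, with the highest gene at the left of each bar. Gpr162 holds 97.4% of its pair, while Gpr61, Gpr135 and Gpr62 share theirs at 38.8, 30.7 and 30.5%.

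Over the 11 families of related genes, the leading gene held at least 75% of the sum in 6. Among them were Gpr12, Gpr162, Gpr161 and Gpr139, the last from a family whose sum was below 1 TPM. Relatives were alike in part of their sequence. Their coding sequences were 51.2 to 67.0% identical over 26 pairs, against a median of 52.6% and at most 60.2% over 2459 pairs from different families. The deposited posterior SD of the count, which rises when reads match several genes, was above 0 for 3 of the 73 genes (Gpr137b, Gpr176 and Gpr75). It reached 1.70% of the count at most.

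Below 1 TPM lay 35 genes. Of these, 27 had counts, from 0.01 TPM (Gpr119) to 0.88 TPM (Gpr139). The other 8 had 0 counts in both libraries (10.96% of the 73, beside 21.0% of protein-coding genes). Among them were Gpr31a, Gpr31b, Gpr141, Gpr141b, Gpr142, Gpr171 and Gpr174. A count of 0 allows up to 3 counts, which is 0.0979 counts-per-million for replicate 1 and 0.0840 for replicate 2. For these genes that limit lay between 0.0454 TPM (Gpr174) and 0.167 TPM (Gpr31a) in replicate 1, and it covers counting error only. A further 5 genes (Gpr15, Gpr18, Gpr33, Gpr119 and Gpr132) were at 0 in 1 library. The 5 highest genes under the threshold were Gpr139, Gpr4, Gpr6, Gpr157 and Gpr182, all between 0.565 and 0.88 TPM on average.

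Some low genes are known from cells or regions that the dissection could hold in part. In bulk RNA, fewer cells of a type and less RNA per cell cannot be told apart. Of 4 genes known from microglia (Gpr34, Gpr65, Gpr84 and Gpr183), only Gpr34 reached 1 TPM, while the 3 microglial markers Csf1r, P2ry12 and Cx3cr1 stood at 15.7 to 35.2 TPM. Gpr151, known from the habenula, was at 0.34 and 0.27 TPM, and of 3 habenular markers 1 reached 1 TPM. Tac2 stood at 2.12 and 1.94, Chrnb4 at 0.03 and 0.09, and Pou4f1 was at 0.03 in replicate 1 and listed at 0 in replicate 2. The striatal markers Drd1, Drd2 and Adora2a were at 1.34 to 1.79 TPM, beside 0.68 and 0.73 for Gpr6. Markers of the tissue itself were present, 3 of 3 for each of dentate granule cells, CA1, CA2 and CA3. Their summed levels in replicates 1 and 2 were 95.1 and 83.9 TPM for dentate granule cells and 200.2 and 208 for CA1.

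The signalling machinery that such receptors use was mostly present. Of 13 G protein alpha subunits 12 reached 1 TPM. They were led by Gnas at 736 and 842 TPM, which stimulates cyclic AMP production, and by the inhibitory-class subunits Gnao1 (310.3 and 309.6) and Gnai2 (95.0 and 95.9). Gna14 was lowest at 0.87 and 1.00. All 7 arrestin and receptor kinase genes found were present, with Grk2 highest (78.8 and 84.4). Orphan receptors named by other rules reached 1 TPM in 10 of 15 cases. Gpr37l1, the relative of Gpr37, was at 96.4 and 102 TPM, above all 73 Gpr genes in both libraries, followed by Gprc5b (46.7 and 51.5) and Mas1 (21.1 and 22.4). Gprc5d and Gprc6a were listed at 0.

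The replicates lay close together. Ratios of replicate 2 over replicate 1 were taken from expected counts after TMM scaling, which balances libraries on the bulk of genes. At a mean count of at least 100, 0 of 35 Gpr genes differed over 2-fold, beside 0.778% of all 12719 genes at that depth. The median log2 ratio was 0.08, against 0.04 for all genes, with 24 genes higher and 11 lower in replicate 2. This split rests on the scaling. On spike-in totals 6 were higher and 29 lower, with the median of the Gpr genes at -0.13 and that of all genes at -0.17. The 95% counting interval of the ratio lay above 0 for 13 of the 35 (37.1%, beside 25.3% of all genes) and below 0 for 2 (5.71%, beside 14.7%). On spike-in totals these numbers were 2 and 18 of the 35, beside 1.07% and 57.8% of all genes. Over 18266 genes the biological coefficient of variation was 0.102.

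The highest ratios were those of Gpr3, Gpr101 and Gpr165. Gpr3 had 94 and 176 counts in replicates 1 and 2, a log2 ratio of 0.71 (95% counting interval 0.35 to 1.09). Gpr101 had 333 and 539 counts (0.50, 0.31 to 0.71), and Gpr165 243 and 350 (0.34, 0.10 to 0.58). All 3 kept their sign on spike-in totals, at 0.51, 0.30 and 0.13. The lowest were Gpr21, with 114 and 89 counts (-0.54, -0.96 to -0.13), Gpr34, with 230 and 191 (-0.46, -0.74 to -0.17), and Gpr61, with 527 and 556 (-0.11, -0.29 to 0.06). The interval of Gpr61 included 0.

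The overlapping genes Rabgap1, Strbp and Cask and the 3 microglial markers stood nearer to 0 than Gpr21 and Gpr34. Cd164l2, which shares 7.5% of the exon bases of Gpr3 on the opposite strand, did not stand near 0. It had 35 and 20 counts and a log2 ratio of -0.98 (-1.87 to -0.16). The part of overlapping genes and cell types in these ratios was not tested. Gpr21 lies within Rabgap1 on the same strand, and Rabgap1, at 39.7 and 36.2 TPM, had a log2 ratio of 0.00. Gpr21 also lies within Strbp on the opposite strand. Strbp, at 72.0 and 67.6 TPM, had a log2 ratio of -0.07 (-0.12 to -0.03), of the same sign as Gpr21. The ratio of Cask, which holds Gpr34 on the opposite strand, was 0.07. The 3 microglial markers had ratios of 0.00 to 0.07 while Gpr34 was at -0.46. At lower minimums of 50 and 10 counts, 1 and 2 Gpr genes differed over 2-fold, beside 1.55% and 5.13% of all genes. Gpr84 (16 and 7 counts, log2 ratio -1.32, -2.91 to -0.02) was among those at the lowest minimum.

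**Figure D3:**
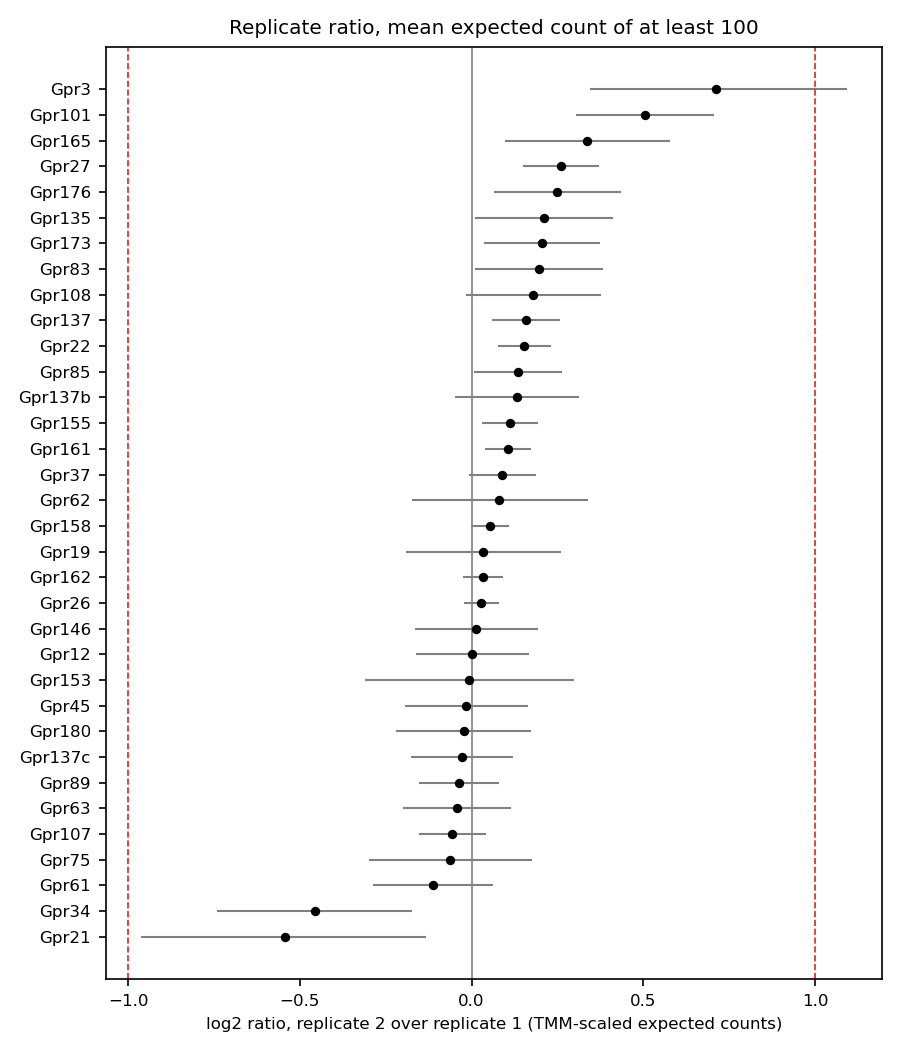
Log2 ratio of replicate 2 over replicate 1 from TMM-scaled expected counts for 34 of the 35 Gpr genes with a mean count of at least 100, with 95% exact counting intervals as bars and dashed lines at 2-fold. The points run from -0.54 (Gpr21) to 0.71 (Gpr3) and none passes 2-fold.

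Which transcripts carried the level was read from the deposited transcript tables. Of the 38 present genes 28 have several annotated transcripts. In 24 of these the leading transcript held at least 50% of the gene's TPM, beside 68.9% of protein-coding genes of this kind, and the replicates had the same leader in 24. It was protein-coding in 26. The exceptions were Gpr12 and Gpr45. A retained-intron transcript, Gpr12-202, held 40.1% of Gpr12 in replicate 1 and 39.3% in replicate 2, ahead of the coding Gpr12-203 (23.8 and 32.0%). A processed transcript without coding sequence, Gpr45-205, held 55.5% and 55.9% of Gpr45, ahead of the coding Gpr45-203 (25.1 and 27.9%).

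In 8 genes at least 25% of the TPM fell on transcripts not typed as protein-coding. These include the nonsense-mediated decay type, which can carry an annotated coding sequence, as Gpr61-202 does (1347 bases). The share was 72.2% in Gpr45, 49.9% in Gpr61, 47.4% in Gpr107, 41.4% in Gpr89 and 39.7% in Gpr12. In Gpr173 and Gpr63 it was 29.2 and 29.1%. In the other direction, 8 genes had none, among them Gpr22, Gpr37, Gpr85 and Gpr161. Counting only transcripts typed as protein-coding, Gpr45 stood at 2.91 TPM in place of 10.5, and all 38 genes were at 1 TPM or more. The kallisto table gave 73.4% for Gpr45 and 52.2% for Gpr61, but 0 for Gpr63, where RSEM gave 29.1%.

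**Figure D4:**
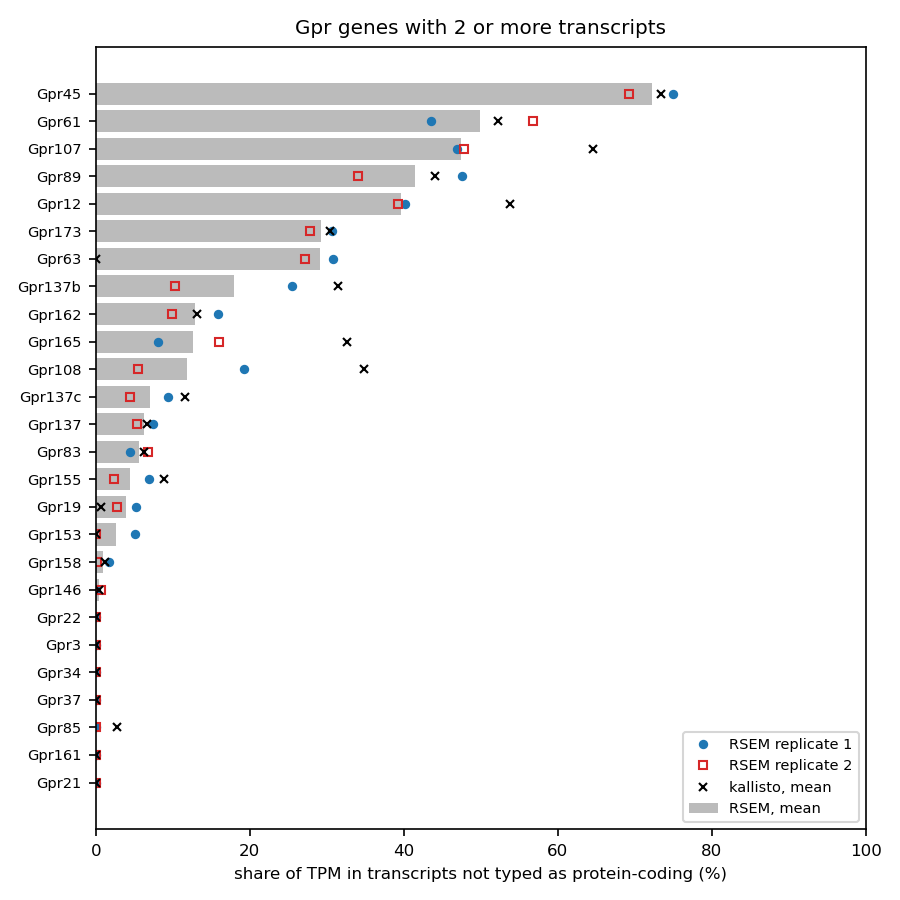
Share of TPM in transcripts not typed as protein-coding for 26 of the 28 present Gpr genes with several transcripts, as the RSEM mean (bar), the RSEM replicates (circles and squares) and the kallisto mean (crosses). Gpr45 is highest at 72.2%, and Gpr63 is at 29.1% in RSEM and 0 in kallisto.

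In Gpr89 the replicates lay further apart in TPM than in TPM of transcripts typed as protein-coding. Gpr89 was at 19.6 and 16.2 TPM in all and at 10.3 and 10.7 on transcripts of that type. Its transcript of the nonsense-mediated decay type, Gpr89-205, held 37.0% and 28.3%.

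The leading transcript differed between replicates in 4 genes, among them Gpr19, Gpr61 and Gpr153. Gpr153-201 held 70.8% in replicate 1 and 0 in replicate 2, where Gpr153-203 held 63.4%. In Gpr61, Gpr61-201, typed as protein-coding, led in replicate 1 (56.5%). Gpr61-202, of the nonsense-mediated decay type, led in replicate 2 (56.8%). In Gpr19, with 13 transcripts, Gpr19-208 held 24.6 and 33.1% and Gpr19-201 27.6 and 27.9%. In kallisto the replicates had the same leader in Gpr153 (Gpr153-203, 70.3 and 59.2%) and in Gpr19 (Gpr19-203, 38.3 and 38.4%). Gpr19-203 was at 0 in RSEM, so the tables differed as well as the replicates. In Gpr61 the leader changed between replicates in kallisto too. The leading transcript of Gpr19, Gpr61 and Gpr153 was therefore not settled by these libraries.

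In 5 further genes the replicates gave the same leader in RSEM but kallisto gave another in at least 1 library. Gpr34-202 held 81.6% of Gpr34 in RSEM and 18.0% in kallisto, where Gpr34-201 led. Gpr85-203 held 55.8% in RSEM and 1.05% in kallisto, where Gpr85-202 led with 65.0% (13.5% in RSEM), and Gpr85-201 held 30.7 and 31.2%. The lead of Gpr22-204 (71.5%) over Gpr22-203 (28.5%) shrank to 42.7 against 41.5%. Gpr37-201 held 73.6 and 54.6% in RSEM and kallisto beside Gpr37-202 (26.4 and 45.4%), and Gpr146-201 80.5 and 47.5% beside Gpr146-203 (19.1 and 52.1%).

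On the TPM scale of each table, gene levels were higher in kallisto than in RSEM for all 38 genes. The median ratio of the tables was 1.51, near the 1.56 over all genes. TPM over nuclear genes was rescaled without the mitochondrial genes and also without Rn7s1, Rn7s2 and Rn7sk, which are genes of structural RNAs. With both tables scaled in this way the median ratio was 0.997, beside 1.03 over all genes. Before that scaling, the ratio was highest in Gpr19 (2.07), Gpr107 (2.04), Gpr108 (2.01), Gpr137b (1.89) and Gpr137c (1.82). Over nuclear genes these stayed higher in kallisto, as in Gpr19 at 28.1 TPM against 20.5 in RSEM. It was lowest in Gpr63 (1.18), Gpr137 (1.29), Gpr3 (1.32), Gpr12 (1.36) and Gpr62 (1.39). Over nuclear genes these were lower in kallisto, as in Gpr63 at 25.0 TPM against 32.1 in RSEM.

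The longest coding sequence lay in a single exon in 42 of the 71 protein-coding members (59.2%), against 16.3% of all protein-coding genes. Of those 42 genes 19 were present (45.2%), against 24.9% of all genes with 1 coding exon. Of the 29 with several coding exons 19 were present, against 65.5% of such genes. The 8 genes of other membrane protein families, all present, are among these 29. The genes lie on 19 chromosomes, with 9 on the X chromosome.

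Of the 71 protein-coding members, 10 lie wholly within another coding gene (14.1%, against 4.20% of protein-coding genes), and 9 of these only on the opposite strand. Neighbouring genes are among them. Gpr34 and Gpr82 lie in Cask on the X chromosome, and Gpr18 and Gpr183 in Ubac2 on chromosome 14. Cask stood at 36.5 and 39.4 TPM and Ubac2 at 20.6 and 21.6, above these 4 guests, of which 3 were below 1 TPM. Gpr22 lies in Cog5 (27.6 and 25.1 TPM) and Gpr26 in Fgfr2 (18.6 and 19.2), and both lay above their hosts. Others are Gpr146 in 3110082I17Rik and Gpr21, which lies in Rabgap1 on the same strand and in Strbp on the opposite strand. Whether reads were counted by strand is not given in the sources used here, so reads of hosts and guests may be mixed. Of the exon bases of Gpr25, 41.6% are shared with the antisense gene Gm26781, which had 3 and 12 counts beside 65 and 89 for Gpr25.

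Promoters of the present genes were richer in CpG. A window was called CpG-rich at an observed over expected CpG of at least 0.6 and a GC content of at least 50%. Of 28 present genes with a window, 16 had a CpG-rich one (57.1%), and of 24 genes below 1 TPM 2 had (8.33%). Over all protein-coding genes 50.1% had one, 74.0% of those present and 12.6% of the others, so the same order held over all protein-coding genes. Taking the window with the most CpGs of each gene, the median number was 19.5 in present and 4 in other Gpr genes. Gpr160 and Gpr157 were the 2 genes below 1 TPM with a CpG-rich window. Gpr22 (2 CpGs), Gpr161 (5) and Gpr85 (5) stood at 17 TPM or more with few. The cyclic AMP response motif TGACGTCA, which reads the same on both strands, was found in 1 Gpr gene, Gpr6, beside 2.64% of protein-coding genes. The shorter TGACG, which is contained in it, was found on either strand in 17 of the 52, beside 26.9%.

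**Figure D5:**
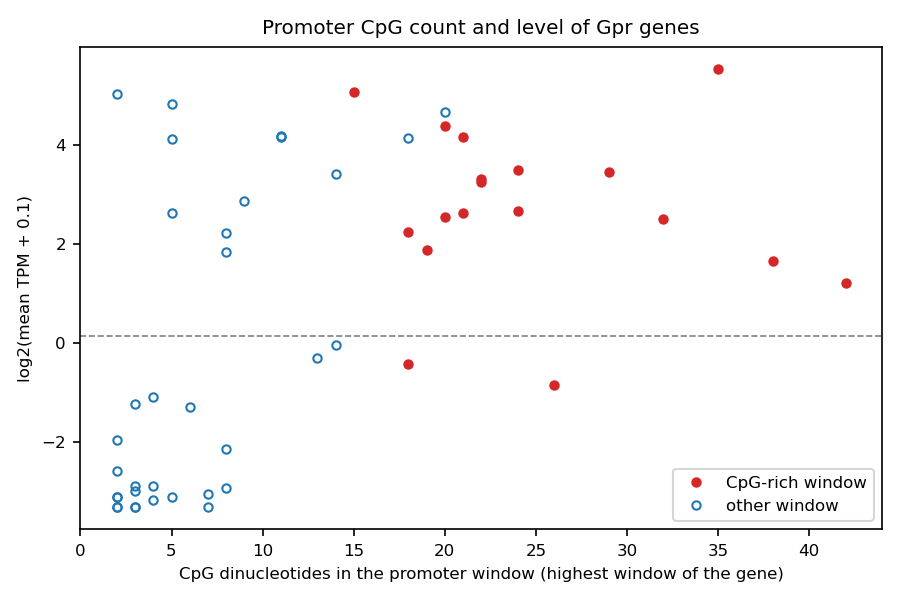
Level as log2(mean TPM + 0.1) against the number of CpG dinucleotides in the promoter window, for the 52 Gpr genes with a RefSeq window, filled where the window is CpG-rich, with the dashed line at 1 TPM. Of the 18 filled points, 16 lie above the line, and most genes below it have under 10 CpGs.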

How the data were processed

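Total RNA-seq libraries of 2 biological replicates of 1 group were analysed. Per the deposited text notes, the build is mm10 with GENCODE annotation vM21. Per the file headers, the deposited gene and transcript tables of RSEM type give expected counts and TPM, and a second transcript table of kallisto type gives estimated counts and TPM. The posterior SD of the count, deposited by the authors, was used as a score of ambiguous reads. Aligner, program versions and strand setting of the counting are not given in the sources used. Libraries were kept apart. Library sizes were 30635891 and 35713471 expected counts. Rows that name no gene, spike-ins included, held 0.367% and 0.414% of counts and stayed out of library sizes.

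Symbols came from the kallisto-type target names, joined by gene identifier (55450 of 55536 genes named). The members, role lists, families and markers were chosen with earlier results of these data known. A gene was present at a mean TPM of at least 1. For ratios, rounded expected counts were scaled with TMM factors of edgeR 4.0.16 under R 4.3.3, and 0.5 was added as prior count. Intervals of ratios are exact binomial (Clopper-Pearson) at 95%. Coding sequences from the annotation were aligned end to end in Biopython 1.88 (match 2, mismatch -1, gap open -5, gap extension -1), since protein sequences were not used here. Other steps used scipy 1.17.1, numpy 2.4.6, pandas 2.3.3 and matplotlib 3.10.9 under Python 3.11.15. The ratio step was tested on simulated data for replicate 2 over replicate 1 on 55536 genes. It called 100 of 100 genes changed 3-fold, 0 of 100 changed 1.5-fold and 0 of 12526 unchanged genes over 2-fold apart. The simulated coefficient of variation was 0.09 (0.113 recovered, 0.102 in the data), and changed genes were drawn at a mean count of at least 100. In the data 0.778% of genes at that depth were over 2-fold apart. The simulation therefore checks the running of the step and not the spread of these libraries.

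The rule for naming genes took all present members, all members of families, members without counts and the 5 highest below the threshold. It also took the 3 highest and lowest ratios and the 5 largest differences between tables in each direction. The leading 2 transcripts were taken where tables or replicates differed or the leader was not coding. For other genes it took the 3 highest and the lowest of a list, but not every list or every such gene is given. Further genes beside them, among them Gpr84 as a ratio, host genes and low list members, were chosen after their values were seen, and not every gene the rule takes has its values given. Some of these genes are not reported here and are left out of the plots. Alternatives covered thresholds, pseudocount, minimum counts, DESeq2 1.42.0 size factors, spike-in totals and the kallisto table. They also covered TPM over nuclear genes (without mitochondrial genes, Rn7s1, Rn7s2 and Rn7sk), read counts in place of TPM, and each replicate left out.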

Additional observations from a re-analysis of the deposited data

Results flagged for a closer look

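Reads of 2 members without RSEM counts appeared in the kallisto table, which the levels above do not use. Gpr141b, typed as a lincRNA, had 20.1 estimated counts in replicate 1 and 11.6 in replicate 2, above the limit of 3 that a count of 0 allows. Its neighbour on chromosome 13, the coding gene Gpr141, had 6 estimated counts in replicate 1 and 2 in replicate 2, so only replicate 1 exceeded that limit. Both were listed at 0 in the RSEM gene tables of both libraries.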

How the results depend on the processing

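No paired analysis was possible because there was only 1 group. The number of present genes (38) was 43 at 0.5 TPM, 29 at 5 TPM, 41 in kallisto and 43 with TPM over nuclear genes. With alternatives chosen after seeing the data it was 30 without the 8 genes of other membrane protein families, 36 without genes that share at least 20% of their exon bases with another gene, and 38 on coding transcripts. The median of log2(TPM + 0.1), 0.29, became 1.08 with a pseudocount of 1, 3.22 over present genes, 0.84 in kallisto and 1.12 with TPM over nuclear genes. The summed level, 558 TPM, became 1031 over nuclear genes, 864 in kallisto and 1345 counts-per-million without division by length. Over 2-fold apart stood 0 genes at a mean count of 100, 1 at 50 and 2 at 10, and 0 under DESeq2 factors, spike-in totals and kallisto counts. The median ratio of 0.08 turned to -0.13 on spike-in totals. A leading transcript of at least 80% was found in 9 genes in place of 24 at 50%. Leaving out each replicate gave 36 to 38 present genes, medians of 0.04 to 0.46, sums of 549 to 567 TPM, 23 to 25 genes with a leading transcript and 6 families with a leading gene. Kallisto, on its own TPM scale, moved 37 of 38 levels by more than the SD between replicates, and 4 of 11 family shares. With both tables scaled over nuclear genes, the median ratio of the levels was 0.997. Expected counts moved 7 of 11. The cause was not tested. With 2 libraries an SD is imprecise, and differences among genes of a few counts were not detectable at this depth.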
